A study of Rattus norvegicus with 6 samples.

Results

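The cytosolic ribosomal protein genes were examined in kidney RNA of male Han:SPRD rats. Members were the probe sets whose platform annotation gives a single symbol of the form Rpl or Rps with a number, or Rplp0, Rplp1, Rplp2 or Rpsa, and the Rps6k kinases were left out. This gave 57 probe sets of 50 genes, 34 of the large and 16 of the small subunit, out of 14218 genes with a single symbol. Each gene was represented by its brightest probe set over the 6 arrays. The 3 Cy/+ samples came from heterozygous Han:SPRD rats, which carry a missense mutation in Anks6 and develop cystic kidneys, and the 3 +/+ samples from wild-type rats. Both groups are whole kidney tissue, aged 10 weeks by the labels, while the methods give a younger age for the arrays. No source used here states that each sample came from a separate rat, so p-values measure no more than the spread of these samples, and that spread may be technical. In whole tissue, more cells of a type and more RNA per cell cannot be told apart.

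The cytosolic ribosome is built from a large subunit, which joins amino acids, and a small subunit, which reads the mRNA. Each ribosomal protein is present in about equal number in the particle, and the genes are transcribed together at high rates in most cells. Their mRNAs are known for a run of C and T bases at the very start, the terminal oligopyrimidine tract, through which mTOR signaling controls their translation. One of the proteins, Rps6, is the best known substrate of the p70 S6 kinase of the mTOR pathway. A kidney that enlarges after loss of its partner is known to gain ribosomes. The study made these arrays to compare genes of glucose use between the genotypes.

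Ribosomal protein genes were higher in Cy/+ than in +/+ kidneys as a group, with a small and even difference whose median turned below 0 when the arrays were scaled to the hybridization controls. Of the 42 genes tested, 39 were higher, none was lower and 3 did not pass the test. The share of members higher was 92.9%, against 37.4% of the 10645 genes tested, of which another 29.3% were lower. Without adjustment 40 members were higher and none was lower at p under 0.05 by limma, and the methods' t-test gave the same counts. Shares over all genes were not counted without adjustment. The median log2 fold change over the members was 0.54, or 1.45-fold, against 0.090 over all genes tested. In 40 members every Cy/+ array lay above every +/+ array, which is 95.2% of them, against 41.5% of all genes tested. In none of the 42 did every Cy/+ array lie below every +/+ array, against 33.1% of all genes tested. Scaled to the hybridization controls, 2 members, Rpl12 and Rpl13a, kept a log2 fold change above 0, and 40 had one below 0.

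The differences were narrow in size. The middle 50% of the members lay between log2 fold changes of 0.42 and 0.62, while that of all genes tested lay between -0.37 and 0.58. The SD of the log2 fold change between genes was 0.23 for the members and 0.98 for all genes. The median standard error was 0.077 for a member and 0.11 for all genes tested. Most members are bright, and the genes they were compared with were not matched to them in signal. Only 14 members, 33.3%, reached 1.5-fold, against 24.8% of all genes. Across the 42 members the log2 fold change went with the mean log2 signal at r = 0.29, and at r = -0.17 in the 37 members above a signal of 4000 on every array. These are descriptions over genes that share the same 6 arrays.

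**Figure D1:**
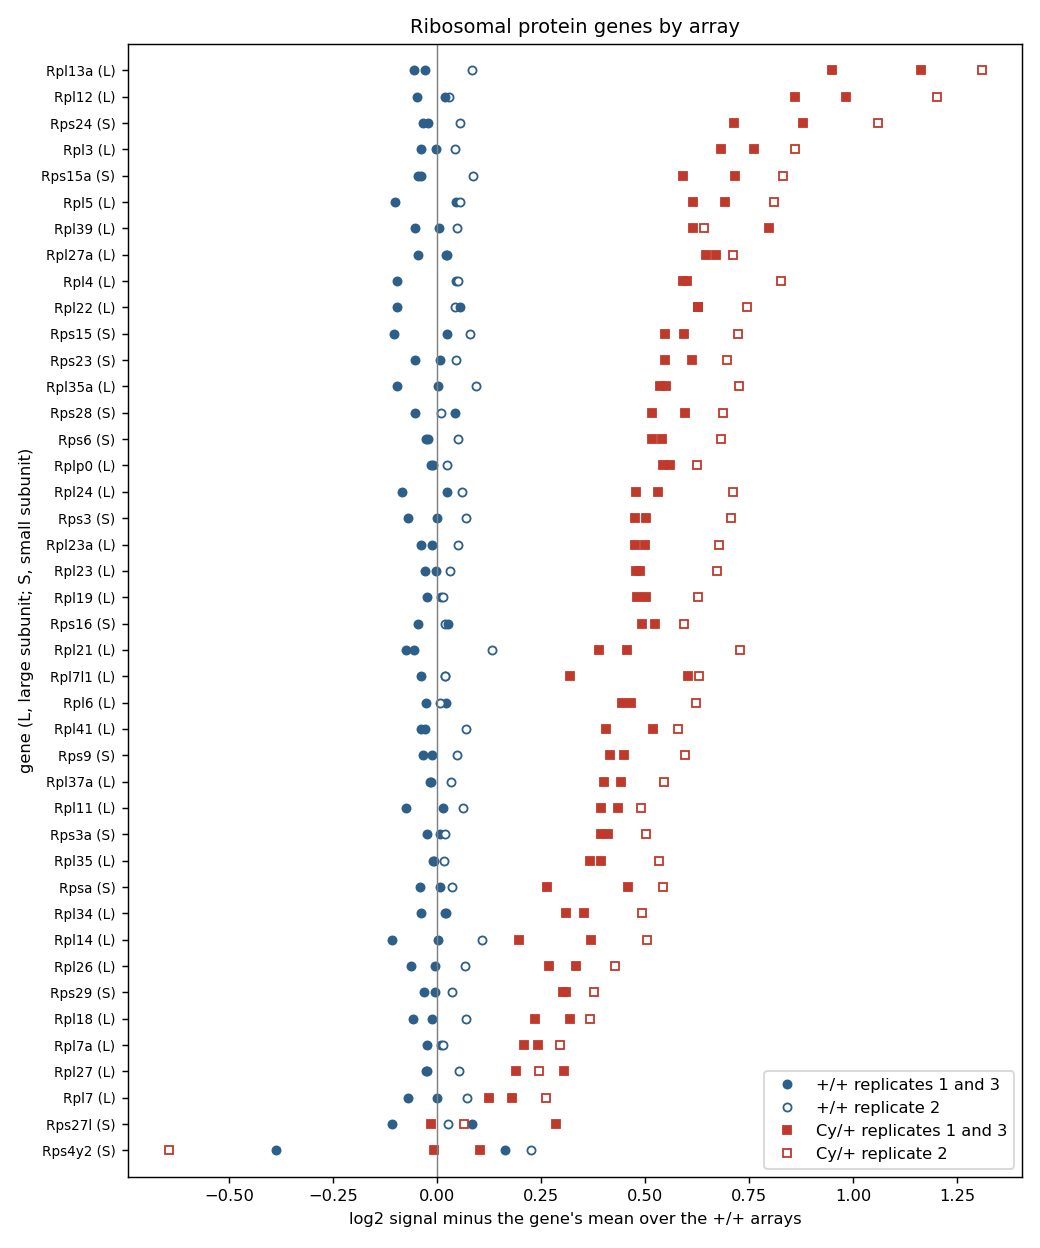
Log2 signal of each of the 42 ribosomal protein genes tested, minus the gene's mean over the +/+ arrays, with circles for +/+ arrays, squares for Cy/+ arrays and open symbols for replicate 2 of each genotype. The genotypes lie apart in 40 genes, from Rpl13a at the top to Rpl7, and overlap in Rps27l and Rps4y2; with arrays scaled to the hybridization controls the median member lay below 0.

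The transcript starts of many members share a sequence feature. RefSeq promoters of GRCr8 were matched to 41 of the 50 members, 36 of them tested. A C followed by at least 4 bases that are each C or T began within 5 bases of the annotated transcript start in 20 of the 41, or 48.8%, against 17.0% of 27457 promoters. Exactly at that start it began in 11, or 26.8%, against 2.63%. The start is that of the 1 transcript used for each gene, and it is the outer end of the annotated gene in 69.3% of all promoters. The motif CCGGAAG, of the kind bound by ETS factors, was found on either strand in 24.4% of the members' 300-base promoters and in 9.22% of all. Searched the same way, AAGATGGCG was in 7.32% of members and 1.93% of all, CACGTG in 7.32% and 6.65%, and TATAAA in 14.6% and 14.3%. To show this, 30 bases around the start are given for 5 members with a counted run, then for 4 without one. They read 5′ to 3′ on the gene's strand. Capitals mark the run from the counted C nearest the start to its last C or T in the window. C and T bases just before that C stay in lower case, so the whole stretch of C and T can be longer. The start is the base after the first 15.
Rps23, chr2:23814502-23814531 (+): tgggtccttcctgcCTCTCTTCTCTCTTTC
Rpl19, chr10:83519049-83519078 (+): cgcgaccagcaagctCTTTCCTTTCgctgc
Rpl12, chr3:36661925-36661954 (+): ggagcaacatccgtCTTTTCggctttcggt
Rps15, chr7:10068101-10068130 (-): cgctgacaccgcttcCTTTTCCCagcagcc
Rplp0, chr12:46718376-46718405 (-): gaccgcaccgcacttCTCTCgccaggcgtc
Rpl13a, chr1:104748899-104748928 (-): cctcttcctttcctaggcggctgccgaaga
Rps6, chr5:106420526-106420555 (-): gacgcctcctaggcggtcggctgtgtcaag
Rps27l, chr8:76443643-76443672 (+): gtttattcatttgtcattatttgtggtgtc
Rpl7l1, chr9:21695703-21695732 (+): agctgcagatgcattgtgggaagcctttaa

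Members with and without the run were higher in equal number. Of the 18 tested members with the run within 5 bases, 17 were higher, with a median log2 fold change of 0.60. Of the 18 without it, 17 were higher too, with a median of 0.52, Rpl13a and Rps6 among them. The windows depend on which start the annotation gives. Rpl13a and Rps6 each have a run of C and T a few bases before the annotated start, beginning outside the stretch that was counted. Members without a counted run can thus have one nearby, so these counts do not separate members by the tract itself.

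Some measurements of the arrays themselves moved with the genotype. The probe sets of the spiked-in hybridization controls, which carry no rat RNA, had a median log2 difference of 0.87 between Cy/+ and +/+ arrays, and all 18 were brighter on every Cy/+ array. The 24 poly-A control probe sets, spiked in before labeling, were all brighter there too, at a median of 3.82-fold. This is a median log2 difference of 1.93, larger than the log2 fold change of any member. No scaling to the poly-A controls was run. Scaling the arrays to the hybridization controls took 0.98 off every log2 fold change, gave a median of -0.45 over the members, and left none higher and 5 lower (Rpl7, Rpl7a, Rpl27, Rps27l and Rps4y2), against 4.53% of all genes higher and 63.4% lower. With quantile normalization 40 members were higher and none lower (median 0.61), and with arrays centred on their median 36 and none (median 0.46). Shares over all genes were not counted with quantile normalization or centring. The 3' to 5' signal ratio, which tracks how whole the RNA was and how it was labeled, was 3.22 ± 0.26 (SD, n = 3) for beta-actin on Cy/+ arrays and 1.51 ± 0.0057 (SD, n = 3) on +/+ arrays. The part of the controls and of this ratio in the higher ribosomal protein signals was not tested. Kidney markers were present, and 5 markers of liver, muscle and pancreas summed to a signal of at most 201.

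On the deposited scale, markers of other cell types also moved with the genotype. There, 37.4% of all genes tested were higher and 29.3% lower. All 10 leukocyte markers tested of 12 were higher in Cy/+ kidneys, and their summed signal was 26487 to 33582 against 14355 to 16240 in +/+ kidneys. Of 8 fibroblast markers, 6 were tested and 5 were higher, at a summed signal of 16695 to 31786 against 6604 to 7539. Of 9 markers of proliferating cells, 7 were tested and 5 were higher, at 3301 to 3690 against 2692 to 2786. All 8 proximal tubule markers were lower, at 8761 to 20414 against 75797 to 79846. Of the others, 3 of 3 podocyte and 2 of 2 erythroid markers were lower, at sums of 664 to 918 against 1634 to 1729 and of 700 to 892 against 7431 to 10139, and 1 of 5 distal nephron and collecting duct markers was lower, at 20744 to 32847 against 27425 to 29351. The leukocyte markers Cd52 and Cd79b, the fibroblast markers Lum and Postn and the proliferation markers Birc5 and Ccna2 lay below the filter on dim signals. Scaling to the hybridization controls takes 0.98 off each log2 fold change, and marker counts were not made with it. The median log2 fold change of the proliferation markers, 0.86, is smaller than that shift. Those of the leukocyte and fibroblast markers, 1.47 and 1.65, are larger. The part of these cell types in the ribosomal protein result was not tested.

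Among the large subunit genes, Rpl13a differed most. Its product is also known for leaving the ribosome to silence mRNAs in interferon-treated myeloid cells. Rpl13a had signals of 11320, 14540 and 13130 on the Cy/+ arrays and of 5649, 6220 and 5745 on the +/+ arrays. Every Cy/+ value lay well above the highest +/+ value. This is 2.20-fold, or a log2 fold change of 1.14 with a standard error of 0.10 (written 1.14 ± 0.10 for fold changes from here on; limma, adjusted p = 0.000114). Its probe set is of a kind (suffix _a_at) that can bind several transcripts of a gene. Rpl12, which encodes a protein at the base of the ribosomal stalk, had 13450, 17040 and 14650 in Cy/+ and 7167, 7556 and 7508 in +/+ kidneys. The groups were apart again, at 2.02-fold (1.02 ± 0.098 on the log2 scale; limma, adjusted p = 0.000138). By their brightest probe sets, no other member reached 2-fold.

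Other named large subunit genes had smaller differences than Rpl13a and Rpl12. Rpl3, whose protein reaches into the peptidyl transferase centre, had 14080, 15920 and 14870 in Cy/+ and 8755, 9035 and 8538 in +/+ kidneys. All 3 Cy/+ arrays were higher, by 0.77 ± 0.074 on the log2 scale (limma, adjusted p = 0.000137). Rpl4 and Rpl39 encode proteins that line the exit tunnel for the growing chain. Their log2 fold changes were 0.67 and 0.68, and Rpl39 had this difference at low signals of 180.0 to 204.6 in Cy/+ and 113.4 to 121.6 in +/+ kidneys. Rpl27a (0.68) and Rpl22 (0.67) were of the same size. Rpl5 and Rpl11 encode the proteins that carry 5S rRNA into the large subunit and that bind MDM2 when ribosome assembly is disturbed. Rpl5 had 14580, 16680 and 15370 in Cy/+ and 9815, 9895 and 8879 in +/+ kidneys, 0.71 ± 0.083 on the log2 scale. Rpl11 had 10940, 11360 and 10630 against 8164, 8440 and 7679, 0.44 ± 0.071 on the log2 scale. Both pairs of groups were apart, and both genes passed (adjusted p = 0.000308 and 0.00133 from limma).

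Of the stalk that recruits elongation factors, Rplp0 was measured alone. It had 13240, 14020 and 13400 in Cy/+ and 8994, 9250 and 9034 in +/+ kidneys. The values hardly spread within a genotype, and the log2 fold change was 0.58 ± 0.065 (limma, adjusted p = 0.000249). Rplp1 was measured through a joint entry of the annotation, which names it together with its copies, at a log2 fold change of 0.45. Rplp2 is not analysed here.

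In the small subunit, Rps24 differed most. Rps24 and Rps19 are genes in which human mutations cause Diamond-Blackfan anemia, a disorder of ribosome production. Rps24 had 14440, 18340 and 16200 in Cy/+ and 8672, 9143 and 8606 in +/+ kidneys. The groups were apart by more than their own range, by 0.88 ± 0.099 on the log2 scale (limma, adjusted p = 0.000244). This probe set too has the suffix _a_at. Rps24's second probe set, at signals of 93.6 to 198.5, gave 0.70. Rps19 was measured in a joint entry, where the log2 fold change was 0.85.

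Other named small subunit genes had smaller differences than Rps24 by their brightest probe sets. The log2 fold changes were 0.71 for Rps15a, 0.62 for Rps15 and 0.62 for Rps23, which reaches into the decoding centre. Rps6, the substrate of p70 S6 kinase, had 14190, 15910 and 14410 in Cy/+ and 9758, 10260 and 9729 in +/+ kidneys. Each Cy/+ array was higher, by 0.58 ± 0.075 on the log2 scale (limma, adjusted p = 0.000454). Rpsa, whose protein is also known as a laminin receptor, had 9696, 11760 and 11090 in Cy/+ and 8105, 8272 and 7845 in +/+ kidneys, 0.42 ± 0.089 on the log2 scale (limma, adjusted p = 0.00452). The other probe sets of Rpsa gave larger values of 0.88 and 1.08, and both have suffixes that mark possible binding to several transcripts.

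The large and the small subunit moved together. Of 28 large subunit genes tested, 27 were higher and 1 did not pass, and the log2 fold changes ran from 0.19 to 1.14 around a median of 0.53. Of 14 small subunit genes, 12 were higher and 2 did not pass, with a median of 0.55 and a range of -0.18 to 0.88; scaled to the hybridization controls the medians of the large and the small subunit were below 0, at -0.45 and -0.43. The median of the large subunit was lower by 0.018 than that of the small one, while its mean was higher by 0.062, at 0.54 against 0.48. The sign of the median difference also turned without Cy/+ replicate 1 (0.0034) and with no filter on dim signals (0.0029). On the Cy/+ arrays the median of the large subunit genes, relative to their +/+ means, was 0.48, 0.63 and 0.49, and that of the small subunit genes 0.51, 0.64 and 0.48. Within an array, the large minus the small subunit median was -0.032, -0.011 and 0.0051 on the Cy/+ arrays and 0.026, 0.0029 and -0.019 on the +/+ arrays, so the genotypes overlapped. No test was run on these medians, since the genes of an array are not replicates.

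**Figure D2:**
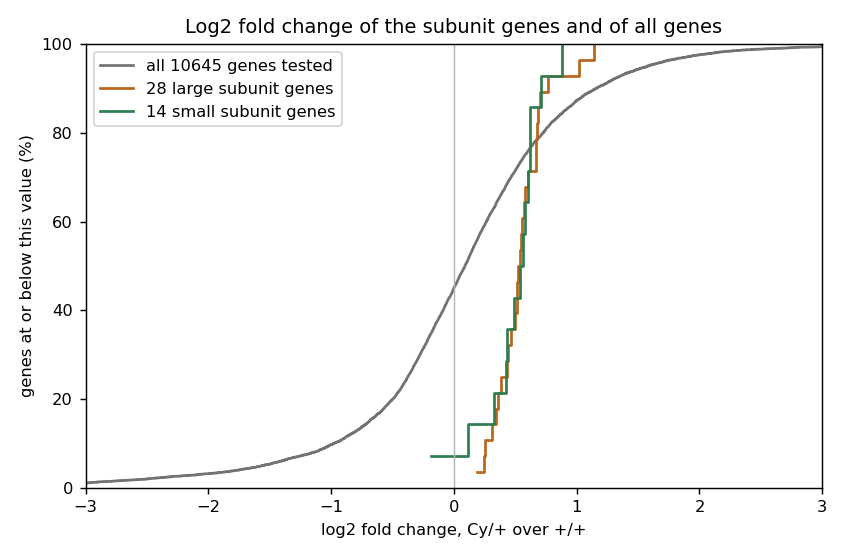
Share of genes, in percent, at or below each log2 fold change of Cy/+ over +/+, for the 28 large subunit genes, the 14 small subunit genes and all 10645 genes tested, with the axis limited to -3 to 3. The curves of the subunits run close together and rise steeply between 0.42 and 0.62, where 50% of the members lie; scaling to the hybridization controls moved all curves by 0.98 to the left.

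The members also varied together within a genotype. Replicate 2 of Cy/+ had the highest Cy/+ signal in 38 of 42 members, against 30.7% of all genes tested. Replicate 2 of +/+ had the highest +/+ signal in 36 of 42 members, against 35.3% of all genes. The labels do not say whether these numbers pair samples across the genotypes. Relative to the +/+ means, the median over the members was 0.48, 0.63 and 0.48 on Cy/+ arrays 1, 2 and 3 and -0.017, 0.048 and -0.027 on the +/+ arrays. The members are read from the same arrays, so these counts describe 6 arrays and not 42 observations. On Cy/+ replicate 2 the summed signal of the proximal tubule markers was 8761, against 20414 and 19407 on Cy/+ replicates 1 and 3, and that of the proliferation markers was 3690, against 3301 and 3419. Leukocyte and fibroblast sums were highest on Cy/+ replicate 1, at 33582 and 31786. The distal nephron and collecting duct sum was highest on Cy/+ replicate 3, at 32847. On +/+ arrays 1, 2 and 3 the proximal tubule sums were 79846, 75797 and 76123, and the proliferation sums 2768, 2786 and 2692. A link of these sums to the members was not tested. Without Cy/+ replicate 2 the members' median log2 fold change was 0.49, the lowest value when 1 array was left out.

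Taken as a share of all signal on an array, which does not depend on the scaling factor of that array, the members differed between the genotypes. The share is relative to the other probe sets and also rises when their signals fall. It is the same under the control scaling, so it cannot decide between the scalings. The 42 probe sets held 2.97%, 3.43% and 3.10% of the summed signal on the Cy/+ arrays and 2.05%, 2.15% and 2.10% on the +/+ arrays. The mean share was 3.17% ± 0.23 (SD, n = 3) for Cy/+, which is 1.51 times the 2.10% ± 0.046 (SD, n = 3) for +/+. The genotypes did not overlap in this share. Of the members, 37 had signals of 4236 to 25970 on all arrays, and the brightest probe set of any kind had 32240.

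**Figure D3:**
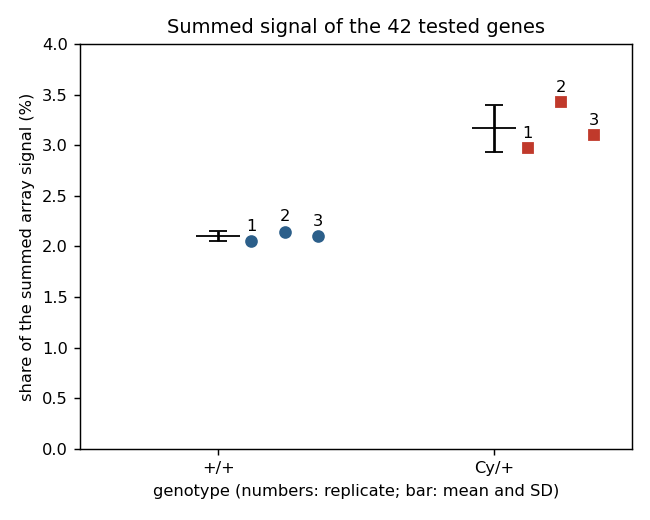
Summed signal of the 42 tested ribosomal protein genes as a percent of the summed signal of all probe sets without controls, for each array, with the replicate number above each point and the mean and SD of each genotype as a bar. The Cy/+ arrays hold 2.97% to 3.43% and the +/+ arrays 2.05% to 2.15%.

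The 3 members that did not pass were Rpl7, Rps27l and Rps4y2. Rpl7, a core large subunit gene, had 11530, 12690 and 11980 in Cy/+ and 10580, 11110 and 10070 in +/+ kidneys. Its groups were apart, but by little, at 0.19 ± 0.075 on the log2 scale (limma, adjusted p = 0.057). It passed with quantile normalization (adjusted p = 0.0359), with the filter at the 60th percentile (0.0422), with the methods' t-test (0.0495) and without Cy/+ replicate 1 (0.0464). Scaled to the hybridization controls it passed in the opposite direction (-0.79, adjusted p = 0.0237). By the mean of both its probe sets, of which the second gave -0.097, its adjusted p was 0.758, the highest of the settings run. Rps27l, a paralog known to be induced by p53, had 444.4, 469.5 and 547.1 in Cy/+ and 416.1, 457.2 and 475.7 in +/+ kidneys. The groups overlapped, at 0.11 ± 0.11 on the log2 scale (limma, adjusted p = 0.386). Rps4y2, a paralog of Rps4x, had 252, 162 and 272 in Cy/+ and 193, 296 and 283 in +/+ kidneys. Its values spread widely in both genotypes, and its log2 fold change was -0.18 ± 0.24 (limma, adjusted p = 0.519). Just above these in size were Rpl27 (0.25) and Rpl7a (0.25), which passed (adjusted p = 0.0156 and 0.0111 from limma) but not with arrays centred on the median (0.0621 and 0.0529). Rpl27 also missed the threshold without +/+ replicate 1 (0.0629) or +/+ replicate 3 (0.0576).

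Paralogs had smaller fold changes than their main genes in 3 of 4 pairs by the brightest probe sets. Rpl22 had a log2 fold change of 0.67, while the joint entry of Rpl22l1 had 0.078. Rps27, from a joint entry, had 0.58, against 0.11 for Rps27l. Rps4x, also from a joint entry, had 0.40, against -0.18 for Rps4y2. The fold changes of the members of a pair differed by 0.59 for Rpl22, 0.47 for Rps27 and 0.58 for Rps4x. Exact two-sided permutation tests of the within-array log2 difference between the genes of a pair over 3 against 3 arrays gave p = 0.1, the smallest that this exact test can give, for Rpl22, Rps27 and Rpl7 and p = 0.3 for Rps4x (0.133 and 0.3 after Benjamini-Hochberg adjustment over 4 pairs). In the Rpl7 pair the paralog Rpl7l1 had the larger value by its brightest probe set, 0.52 against 0.19, and the smaller value by its other one, -0.33. The paralogs Rpl3l, Rpl26l1 and Rpl39l1 lay below the filter, at signals of 26.98 to 35.42, 69.35 to 97.49 and 19.12 to 23.01.

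Rpl7l1 depends on the probe set. Its brightest one had 1328, 1353 and 1092 in Cy/+ and 887, 886 and 852 in +/+ kidneys, 0.52 on the log2 scale (limma, adjusted p = 0.00329). The other one had 847, 860 and 910 in Cy/+ and 1126, 1174 and 992 in +/+ kidneys. The groups lay apart in both, in opposite directions, and the second gave -0.33. Without Cy/+ replicate 1 or without Cy/+ replicate 2 the second probe set became the brighter one, and the gene was lower (log2 fold change -0.31 and -0.32). By the mean of both it did not pass (0.095; limma, adjusted p = 0.311). Of the 5 genes with several tested probe sets, 3 had the same sign in all of them, and Rpl7 and Rpl7l1 did not. Over the 48 tested probe sets of all members, 43 were higher and 1, that of Rpl7l1, was lower.

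Of the 50 members, 8 lay below the filter, with signals of 15.42 to 97.49. These were Rpl3l, Rpl26l1, Rpl28, Rpl30, Rpl37-ps2, Rpl39l1, Rps13 and Rps4x-ps1. Among these, Rpl3l and Rps4x-ps1 were dimmer on every Cy/+ than on every +/+ array. All 42 tested members reached the filter in both genotypes. Rpl28, Rpl30 and Rps13 have bright probe sets in joint entries of the annotation, where a probe set is given to a gene and its near-identical copies at once. Their log2 fold changes there were 0.68, 0.56 and 0.40. In all, 36 probe sets belong to joint entries with a ribosomal protein gene. Of the 35 that were tested 32 were higher and none lower, at a median of 0.52 on the log2 scale, against 35.8% of all probe sets higher and 31.3% lower. Adding the entries that hold 1 such gene beside its copies, an alternative chosen after seeing the data, gave 67 higher and none lower of 71 genes, with a median of 0.54. Signal of the copies and of the gene cannot be told apart on these probe sets.

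The other genes of translation are given on the deposited scale, and every list median was below 0 with arrays scaled to the hybridization controls. The counts of each list stand against 37.4% of all genes higher and 29.3% lower on the deposited scale, and 4.53% higher and 63.4% lower with the control scaling. Among 13 other mRNAs known to begin with an oligopyrimidine tract, 11 were higher and 2 did not pass, at a median of 0.76 (1 higher and 3 lower with the control scaling). They include Eef2 (0.78), the translocase of elongation, Eef1d (0.76), which recharges the tRNA-delivering factor, and Rack1 (0.80), a scaffold on the small subunit. Vim, which encodes vimentin of mesenchymal cells, had 2.68, while Eef1a1 (0.069) and Eif4b (0.11) did not pass. This list shares genes with the lists of elongation and initiation factors. Rack1 was also analysed as a constituent of the ribosome outside the rule, and its probe set carries the suffix _a_at.

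Genes for making ribosomes had more higher than lower calls on the deposited scale, and more lower calls with the control scaling, as did all genes tested. Of 13 genes of RNA polymerase I and its factors, which transcribe the ribosomal RNA precursor, 9 were higher and 4 did not pass, with a median of 0.47 (2 higher and 4 lower with the control scaling). Taf1d, of the factor that selects the promoter, had signals of 638, 767 and 725 in Cy/+ and of 224, 203 and 218 in +/+ kidneys, which is 1.72 on the log2 scale. Polr1g had 1.69, Polr1f 0.88 and Ubtf, which opens ribosomal DNA for transcription, 0.84. Of 97 ribosome biogenesis factors, 46 were higher, 11 lower and 40 without a call, with a median of 0.31, against 37.4% of all genes higher and 29.3% lower. With the control scaling 1 was higher and 55 were lower, against 4.53% and 63.4% of all genes. Dkc1, which modifies ribosomal RNA, had 1.39, Ppan 1.10, Rrp1b 1.03 and Nop58, of the methylating particles, 0.82. On the other side, Gtpbp4 had -1.11, Utp18 -0.98, Utp4 -0.93 and Sbds, which frees the large subunit for joining, -0.85.

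Factors of translation itself were mixed. On the list of elongation and termination 12 genes were tested. Of these, 7 were higher and 3 were lower, with a median of 0.35 (none and 6 with the control scaling). This stands against 37.4% and 29.3% of all genes on the deposited scale. The lower ones were Eif5a (-0.39), Gspt1 (-0.40), a termination factor, and Eef1e1 (-0.36), which is listed by its symbol and is not itself an elongation factor. The higher ones include Eef1g (0.68) and Gspt2, whose +/+ signal of 58.1 lay below the filter. Of 32 initiation factor genes 9 were higher, 5 lower and 18 without a call, with a median of 0.12 (none higher and 24 lower with the control scaling). Both counts are smaller shares than the 37.4% and 29.3% of all genes. Eif5b (1.28), which joins the subunits, Eif4g3 (1.13), Eif3f (1.10) and Eif3h (0.82) were higher. Eif1b (-0.63), Eif2b2 (-0.59), Eif3c (-0.35) and Eif2b1 (-0.33) were lower.

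In the list of mTOR signaling to the ribosome, 9 of 18 genes were higher and 2 were lower, with a median of 0.30 (2 and 9 with the control scaling), against 37.4% and 29.3% of all genes on the deposited scale. Myc, a transcription factor that drives ribosome production, had signals of 1856, 889 and 1008 in Cy/+ and of 203, 211 and 214 in +/+ kidneys, which is 2.50 on the log2 scale. Eef2k, the kinase that holds back Eef2, had 1.78, Eif4ebp1, which holds back cap-dependent initiation, 1.06, and Rictor 0.71. The kinase gene Mtor itself was lower (-0.31), as was Akt1s1 (-0.53). Transcripts do not give the activity of these kinases. In the list called ribosomal stress targets, which also holds cell cycle genes such as Rb1, 4 genes were tested. Cdkn1a was higher (1.51, limma, adjusted p = 0.00107), and Mdm2 (-0.26), Rb1 (0.13) and Ccng1 (0.023) did not pass. With the control scaling none was higher and 3 were lower.

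**Figure D4:**
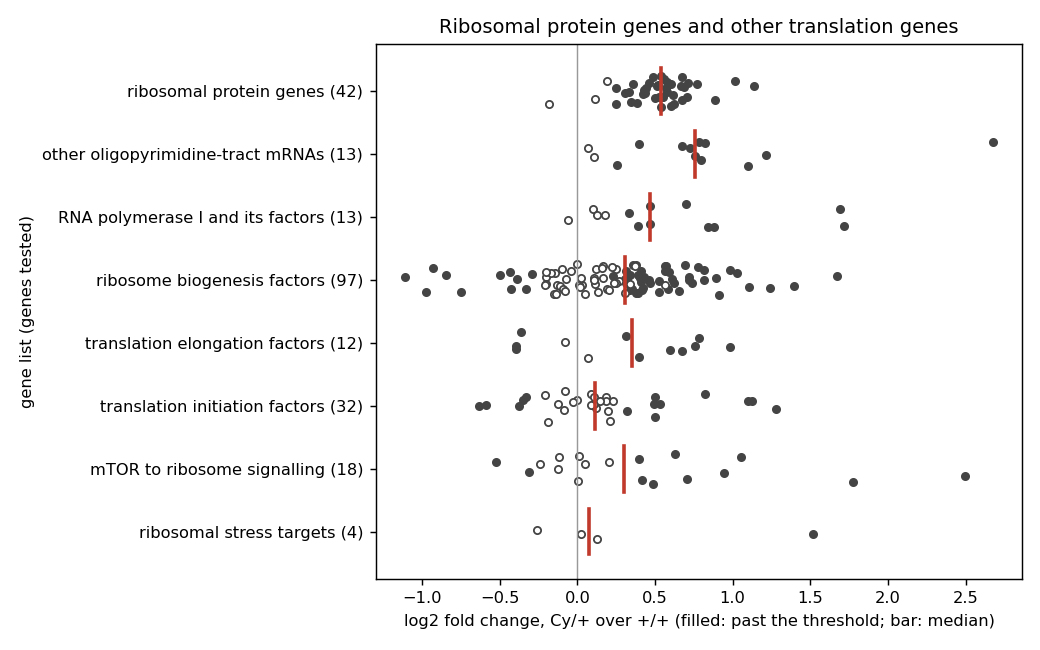
Log2 fold change, Cy/+ over +/+, of each tested gene of the ribosomal protein set and of 7 lists of translation genes, where filled points mark genes that passed limma's test and open points those that did not, and a bar marks the median of each list. The ribosomal protein genes cluster around 0.54, and the biogenesis and initiation factors lie on both sides of 0; scaling to the hybridization controls took 0.98 off all values and put every median below 0.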

How the data were processed

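The authors labeled kidney RNA of 6 samples and hybridized 1 oligonucleotide array per sample, and MAS5 is the tool in the submitters' processing notes. Deposited values are linear signal intensities per probe set, from 10.65 to 32240, with the scaling between arrays not stated in the sources used here. They were taken to log2. Of 31099 probe sets, 57 controls were left out, and the 18625 with a mean log2 signal at or above the 40th percentile (linear signal 77.8) were tested with limma 3.58.1 in R 4.3.3 (lmFit, eBayes with an intensity trend), with Benjamini-Hochberg adjustment over all of them and a threshold of 0.05. Symbols are those of the platform table: 20832 probe sets have 1, 436 several and 9831 none. Current symbols came from Entrez IDs in the GRCr8 table, which held 48 of the 50 members. The number of arrays limits the precision.

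Named members are up to 12 higher and 12 lower of largest change that passed, whose arrays lay apart and whose genotype means reached the filter, the 5 of smallest change, and genes fixed by name with the paralog pairs. Named genes of the translation lists are up to 4 of smallest adjusted p each way. Other named genes were chosen after their values were seen. Members and lists were chosen with earlier results of these data known. Alternatives were other scalings, filters, probe set rules, a pseudocount, the methods' t-test, a replicate block and leaving out each array, and the joint entries and the lists under control scaling were added after seeing the data. The fit was tested on simulated data with independent noise and no shift between arrays, so that test does not cover a difference in scaling.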

Additional observations from a re-analysis of the deposited data

Results flagged for a closer look

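Probe sets that the annotation gives to a ribosomal protein gene together with its copies stand outside the main counts and carried a signal too. Of 35 such probe sets tested, 32 passed as higher in Cy/+ and 0 as lower, against 35.8% and 31.3% of all probe sets.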

How the results depend on the processing

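Quantile normalization, centring, a pseudocount of 16, other filters, no intensity trend, the methods' t-test, other probe set rules and leaving out each array kept the members' median log2 fold change above 0. Scaled to the hybridization controls, the median was -0.45 over all members, -0.45 for the large and -0.43 for the small subunit, with 0 higher in each and 5, 3 and 2 lower. The lists under this scaling, a choice made after seeing the data, had 0 higher and 0 lower constituents outside the rule, 0 and 6 elongation factors, 1 and 3 other oligopyrimidine mRNAs, 0 and 24 initiation factors, 1 and 55 biogenesis factors, 2 and 4 genes of RNA polymerase I, 2 and 9 of mTOR signaling and 0 and 3 stress targets. Single genes all moved by the same 0.98, so 40 of 42 members were below 0. With no filter 1 member, of the large subunit, was lower. With joint entries added 67 members were higher, 42 large and 25 small. Leaving out 1 array gave 37 to 39 higher and 0 to 1 lower members, 0 to 1 of the large subunit, and medians of 0.49 to 0.57. The 1 was Rpl7l1, at -0.31 without Cy/+ replicate 1 and -0.32 without Cy/+ replicate 2. With 1 array left out Rpl7l1 ran from -0.32 to 0.62 and Rps4y2 from -0.38 to 0.047, the latter without Cy/+ replicate 2.

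In the lists, quantile normalization gave 16 higher and 3 lower initiation factors and 1 lower stress target, and centring also gave 1 lower stress target. The mean of probe sets gave 8 lower initiation factors, 1 lower gene of RNA polymerase I and 1 lower stress target. The filter at the 60th percentile, which tests fewer genes, gave 5 higher genes of RNA polymerase I, the methods' t-test 2 higher stress targets, and without probe sets of suffix _a_at Rack1 left the counts, 0 higher. Leaving out 1 array gave 3 to 6 lower initiation factors (3 without +/+ replicate 1 or +/+ replicate 2) and 0 to 1 lower stress targets (1 without Cy/+ replicate 1). Apart from the cases named, the causes were not tested. The labels do not say whether the replicate numbers pair the samples. Same-numbered arrays' deviations correlated at 0.15, -0.11 and -0.15, and 2 of 6 arrays correlated best with their own number. With 3 arrays per genotype these values cannot decide whether samples are paired. The replicate block left 39 members higher, and 11633 probe sets were called in place of 12491.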

Other observations

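The control probe set for 5S rRNA, which is not a polyadenylated RNA, had signals of 142, 164 and 158 on the Cy/+ arrays and of 117, 132 and 146 on the +/+ arrays, with overlapping genotypes and a log2 difference of 0.24 that was not among the tests.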
